A study of Mus musculus with 6 samples.

Results

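The Reg genes encode small secreted C-type lectins, and 7 of them, Reg1, Reg2, Reg3a, Reg3b, Reg3d, Reg3g and Reg4, were taken by symbol from the 23282 rows of each count table. Their RNA was measured in cultured mouse pancreatic acinar cells, which produce the digestive enzymes of the pancreatic juice. In 3 libraries the cells carried a conditional knock-out of the nuclear receptor ERRγ (estrogen-related receptor gamma, gene Esrrg). These are labelled ERRgamma -/- and called cKO here, and the 3 control libraries are labelled wild type. Animals of both groups were of strain C57BL/6J. Cells of both groups were kept in Waymouth's medium with serum, antibiotics, a trypsin inhibitor and epidermal growth factor. Nothing in the labels tells the driver of the deletion, the part of the gene deleted, the age and sex of the animals or the time in culture. Libraries carry the numbers 1 to 3 within a group, with no word on whether each came from its own animal, so p-values measure the spread between libraries, which may be technical.

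Reg proteins are made in quantity by acinar cells and released with pancreatic juice, and several are known to be induced by pancreatitis and by interleukin-6 family cytokines acting through STAT3. Reg1, also known as lithostathine or pancreatic stone protein, and its close relative Reg2 are classed apart from the Reg3 group. In the mouse gut, Reg3b and Reg3g are antibacterial lectins, and Reg3b is also known as pancreatitis-associated protein. Reg4 is better known from the intestine.

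Of the 7 genes, 6 lie side by side on mouse chromosome 6 (chr6:78370657-78468872, GRCm38, GENCODE M21), in 98.2 kb with 0 other annotated genes between them. In this stretch Reg3b, Reg3d and Reg3a are neighbours within 13.2 kb, followed by Reg2, Reg1 and Reg3g. Reg3d and Reg3g lie on the minus strand and the other members on the plus strand. Reg4 lies apart on chromosome 3 (chr3:98222156-98236748). The coding sequences of Reg1 and Reg2 were 78.7% identical, those of Reg3b and Reg3g 75.9%, and those of Reg3a and Reg3d 66.7%. Despite this likeness, 0 of the 50-base windows in the last 300 bases of any member's transcripts occurred in a transcript of another gene, so 3' tags of that length could be assigned to each member.

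The 250 bases before the start of 4 members are printed to set the 2 genes that were lowest in cKO relative to Reg1, Reg3a and Reg3d, beside a Reg1-like gene and another Reg3 gene. They come from RefSeq (GRCm38.p6) and run 5′ to 3′ on the strand of the gene, and none of these 4 windows overlaps an annotated exon. They are Reg3a at chr6:78380459-78380708 (plus strand), Reg3d at chr6:78378866-78379115 (minus strand), Reg2 at chr6:78404905-78405154 (plus strand) and Reg3g at chr6:78468875-78469124 (minus strand). Capitals mark matches, on either strand, to the motifs listed after the sequences.
Reg3a: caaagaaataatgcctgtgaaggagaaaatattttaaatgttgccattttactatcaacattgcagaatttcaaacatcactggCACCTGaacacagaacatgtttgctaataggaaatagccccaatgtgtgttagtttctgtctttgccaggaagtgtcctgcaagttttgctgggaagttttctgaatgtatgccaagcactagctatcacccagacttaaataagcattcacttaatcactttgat
Reg3d: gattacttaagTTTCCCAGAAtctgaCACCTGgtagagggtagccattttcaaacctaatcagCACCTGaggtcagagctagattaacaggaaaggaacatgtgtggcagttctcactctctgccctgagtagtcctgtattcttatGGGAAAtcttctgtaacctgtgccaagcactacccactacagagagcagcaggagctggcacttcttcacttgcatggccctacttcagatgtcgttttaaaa
Reg2: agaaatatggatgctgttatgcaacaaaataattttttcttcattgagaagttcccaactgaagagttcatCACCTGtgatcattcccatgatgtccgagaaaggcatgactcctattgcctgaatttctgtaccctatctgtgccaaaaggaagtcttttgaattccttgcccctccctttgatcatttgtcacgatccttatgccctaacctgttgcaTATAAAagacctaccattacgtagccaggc
Reg3g: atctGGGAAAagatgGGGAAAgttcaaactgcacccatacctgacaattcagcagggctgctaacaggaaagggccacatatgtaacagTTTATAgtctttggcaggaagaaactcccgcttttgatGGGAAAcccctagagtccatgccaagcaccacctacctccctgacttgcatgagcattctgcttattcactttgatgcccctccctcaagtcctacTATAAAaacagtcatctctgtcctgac

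Both strands were searched for AAGGTCA, the core of the response element that ERR proteins are known to bind. It was in 0 of the 7 member windows, against 4.08% of all 32851 RefSeq promoter windows of the same length. The windows of Reg1 and Reg3b overlap annotated exons of these genes. Those of Reg1 and Reg2 lie within the GENCODE genes, which start further upstream (chr6:78422711 and chr6:78395623), so the 2 annotations differ on the start. CACCTG, an E-box of the kind bound by the acinar PTF1 complex, was in 5 member windows (Reg2, Reg3a, Reg3b, Reg3d and Reg4) and in 17.2% of all windows. TTTCCC, the other box of that complex, was in 4 (Reg1, Reg3b, Reg3d and Reg3g) and in 21.9% of all windows. The STAT palindrome TTCNNNGAA was in Reg3b and Reg3d and in 7.02% of all windows, and in Reg3d it overlaps a TTTCCC match. TATAAA was in Reg1, Reg2, Reg3b and Reg3g, 27 to 30 bases before the start on the gene's strand, and in 12.4% of all windows. The Reg3a window thus held 1 match, a CACCTG 166 bases before the start. These matches describe letters in 250 bases and say nothing about binding.

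Library totals were 15.2 M to 17.0 M counts in cKO (M, mega) and 23.0 M to 25.2 M in control. Listed digestive enzyme genes (35 in the tables, such as amylases, trypsins and lipases) took 20.9%, 54.0% and 27.6% of counts in cKO replicates 1, 2 and 3, against 83.4% to 85.0% in control. Because of this, the scale chosen between libraries decides how large any change appears. On the TMM scale of edgeR, which centres most genes near no change, the median log2 fold change of all 13132 tested genes was 0.10. On a scale of library totals it was 3.36, a median shift of 3.26, so that 12653 genes were called higher and 53 lower there, against 3153 and 2716 on the TMM scale. Acinar identity markers were detected in all libraries (13 of 13). Esrrg itself had 0, 9 and 1 counts in cKO and 0 in each control library. Control thus held no detectable Esrrg that could be lost, and the deleted part is not known here, so these counts do not check the deletion.

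The Reg genes made up a smaller share of the RNA in every cKO library. Together they took 0.260% of counts in cKO replicate 1 (exact Clopper-Pearson 95% bounds 0.257 and 0.262), 0.974% in replicate 2 (0.969 and 0.979) and 0.365% in replicate 3 (0.362 and 0.368). They took 1.52% in control replicate 1 (1.52 and 1.53), 1.71% in replicate 2 (1.71 and 1.72) and 2.15% in replicate 3 (2.14 and 2.15). These bounds cover counting error only. Replicate 2 was the highest of the cKO libraries and still lay below all 3 control libraries. The means were 0.533% ± 0.386 in cKO and 1.79% ± 0.320 in control (SD, n = 3 each), which is -1.26 percentage points and 3.37-fold apart. The exact 2-sided permutation p was 0.1, the smallest that 3 libraries against 3 can give.

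**Figure D1:**
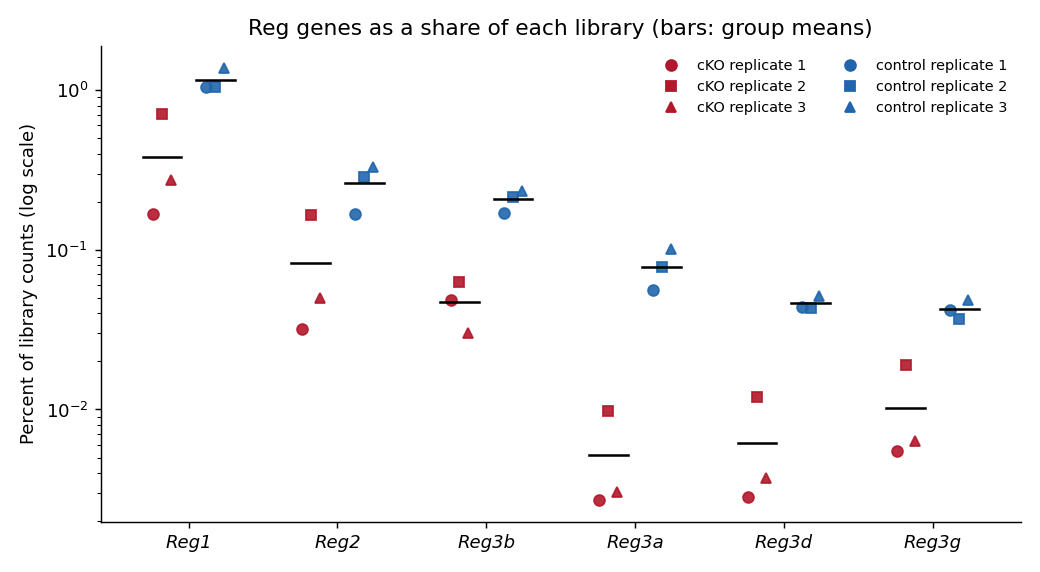
Counts of each expressed Reg gene as a percent of the library's counts (log axis), in cKO libraries (red, left of each pair) and control libraries (blue); points are libraries and bars are group means (n = 3 each). For each of the 6 genes the 3 cKO libraries sit below the 3 control libraries, and cKO replicate 2 is the highest of the cKO libraries.

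Reg1 was the most abundant member in every library. It took 0.168%, 0.705% and 0.272% of counts in cKO replicates 1, 2 and 3, against 1.04%, 1.05% and 1.38% in control replicates 1, 2 and 3. The groups did not overlap, and cKO replicate 2 lay nearest to control. By mean share Reg1 ranked 32 among all rows in cKO and 21 in control. In edgeR's quasi-likelihood test on the TMM scale it fell by 4.46 ± 0.81 (log2 fold change ± SE; adjusted p = 0.000412). On library totals the log2 fold change was -1.60 ± 0.43 (adjusted p = 0.000208).

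Reg2, which shares most of its sequence with Reg1, moved alongside it. Its share was 0.0321%, 0.166% and 0.0497% in cKO replicates 1, 2 and 3, against 0.167%, 0.287% and 0.329% in control replicates 1, 2 and 3. The groups were apart by a narrow margin, since cKO replicate 2 lay just under control replicate 1. Reg2 fell by 4.47 ± 0.87 on the TMM scale (edgeR adjusted p = 0.00225) and had a log2 fold change of -1.66 ± 0.39 on library totals (adjusted p = 3.05e-05).

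Reg3b, the pancreatitis-associated protein, was the most abundant of the Reg3 genes in both groups. Its share was 0.0484%, 0.0631% and 0.0302% in cKO replicates 1, 2 and 3, against 0.171%, 0.214% and 0.234% in control replicates 1, 2 and 3. All cKO libraries were below all control libraries, with replicate 2 the highest in cKO and replicate 3 the lowest. It fell by 5.15 ± 0.54 on the TMM scale (edgeR adjusted p = 4.28e-06), the smallest adjusted p in the family, and had a log2 fold change of -2.13 ± 0.39 on library totals.

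Reg3g, whose product kills Gram-positive bacteria in the mouse gut, was the least abundant expressed member in control. Its share was 0.00550%, 0.0189% and 0.00633% in cKO replicates 1, 2 and 3, against 0.0420%, 0.0369% and 0.0481% in control replicates 1, 2 and 3. All cKO libraries were below all control libraries, with replicate 2 again the highest in cKO. Reg3g fell by 4.92 ± 0.94 on the TMM scale (edgeR adjusted p = 0.00892), and its log2 fold change was -2.05 ± 0.37 on library totals.

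Reg3a was the member furthest from control. It was counted 411, 1667 and 498 times in cKO replicates 1, 2 and 3, which is 0.00271%, 0.00983% and 0.00304% of counts. In control replicates 1, 2 and 3 it was counted 13711, 19599 and 23215 times, which is 0.0561%, 0.0778% and 0.101%. Even the highest cKO library was far below the lowest control library, and the mean shares differed 15.1-fold. Reg3a fell by 6.76 ± 1.02 on the TMM scale (edgeR adjusted p = 0.00222), the lowest log2 fold change of all 13132 tested genes. On library totals its log2 fold change was -3.91 ± 0.41 (adjusted p = 9.12e-21). By mean share it ranked 2329 among all rows in cKO and 39 in control.

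Reg3d, a relative of the islet neogenesis-associated protein of the hamster, came next. It was counted 429, 2019 and 606 times in cKO replicates 1, 2 and 3, which is 0.00283%, 0.0119% and 0.00370% of counts. In control replicates 1, 2 and 3 it was counted 10739, 10912 and 11867 times, which is 0.0439%, 0.0433% and 0.0516%. The control libraries were close to each other and the groups did not overlap. Reg3d fell by 5.76 ± 1.05 on the TMM scale (edgeR adjusted p = 0.00816), and its log2 fold change was -2.91 ± 0.39 on library totals (adjusted p = 2.08e-13).

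Reg4 was counted 1 time in cKO replicate 1 and 0 times in the other 5 libraries. In those libraries 3 counts, the limit that a count of 0 allows, were worth 0.119 to 0.183 CPM (counts per M counts of the library total), so Reg4 was not detectable at this depth and was not tested.

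All 6 members that passed the filter on low counts were called lower on the TMM scale, where 20.7% of all tested genes were. They were also called lower on library totals, where 0.404% of tested genes were, and by DESeq2, which called 18.6% of its genes lower. Groups did not overlap for any of these 6 genes as a percent of library, as was so, with cKO lower, for 0.518% of tested genes; nor did they in CPM on the TMM scale, as for 25.4% of tested genes. Only 41 tested genes (0.312%), the 6 members included, had a TMM-scale log2 fold change as low as that of Reg1, the smallest fall in the family. The median over the 6 members was -5.03 on the TMM scale and -2.09 on library totals. Each member stayed called whichever library was left out, but the size rested on cKO replicate 2. Without that library the TMM-scale log2 fold changes were -5.90 for Reg1, -6.17 for Reg2, -5.91 for Reg3b, -6.35 for Reg3g, -8.26 for Reg3a and -7.33 for Reg3d.

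**Figure D2:**
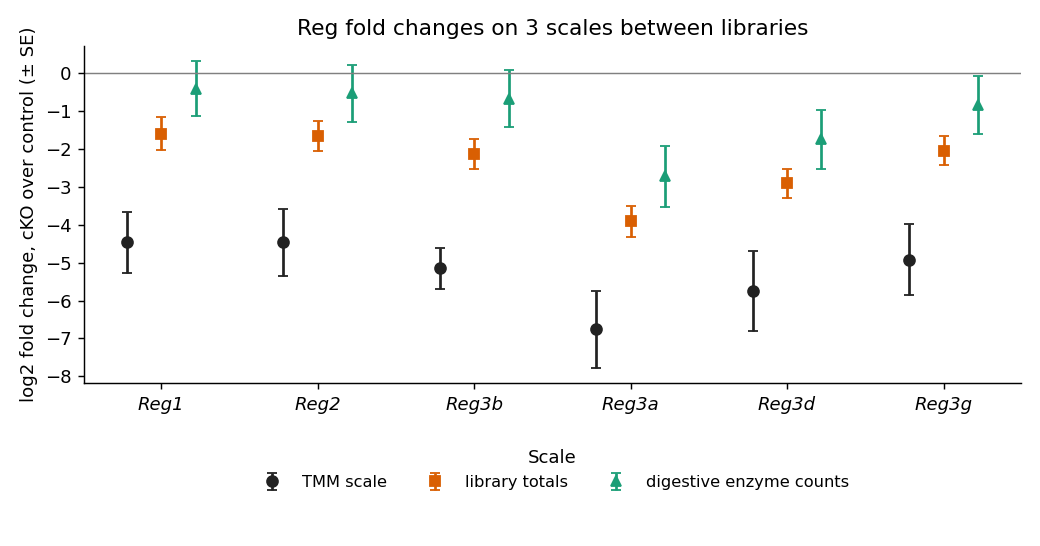
Log2 fold change of cKO over control (± SE, from edgeR with 3 libraries per group) for the 6 tested Reg genes, on the TMM scale (black circles), on library totals (orange squares) and with digestive enzyme counts as the scale (green triangles, a scale added after the data were seen). Every value is below 0 on all 3 scales, but on the enzyme scale only Reg3a and Reg3d passed the test; Reg3a is lowest throughout.

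The order of the members by level differed between the groups. Since 1 tag is read per transcript, these counts need no division by transcript length. In control, Reg1 stood above Reg2 and Reg3b, whose libraries overlapped, then came Reg3a, then Reg3d and Reg3g, whose libraries overlapped. In cKO, Reg1 was followed by Reg2 and Reg3b, which overlapped, and then by Reg3g, Reg3d and Reg3a, whose libraries overlapped. Within each library, Reg3a had fewer counts than Reg3d in all 3 cKO libraries and more in all 3 control libraries. The log2 ratio of Reg3a over Reg3d was -0.062, -0.28 and -0.28 in cKO replicates 1, 2 and 3, against 0.35, 0.84 and 0.97 in control replicates 1, 2 and 3 (difference -0.93 ± 0.20, SE; exact 2-sided permutation p = 0.1). This pair was set against each other after its values were seen.

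Ratios to Reg1 within a library need no scale between libraries. Reg3a had 1.61, 1.39 and 1.12 counts per 100 Reg1 counts in cKO replicates 1, 2 and 3, against 5.38, 7.40 and 7.30 in control replicates 1, 2 and 3. Reg3d had 1.68, 1.69 and 1.36 counts per 100 Reg1 counts in cKO replicates 1, 2 and 3, against 4.21, 4.12 and 3.73 in control replicates 1, 2 and 3. For both genes the cKO libraries, replicate 2 among them, lay close together and below all control libraries. The difference in log2 ratio was -2.28 ± 0.21 (SE) for Reg3a, or 4.87-fold, and -1.36 ± 0.12 for Reg3d, or 2.56-fold (exact 2-sided permutation p = 0.1 for each, the smallest possible). Reg3g differed less, by -0.42 ± 0.16, with 3.28, 2.68 and 2.33 counts per 100 Reg1 counts in cKO replicates 1, 2 and 3, against 4.03, 3.51 and 3.48 in control replicates 1, 2 and 3 (exact p = 0.1). Its groups were also apart, by a small gap. Of all tested genes other than Reg1, 0.0914% had non-overlapping ratios to Reg1 with cKO lower. The ratios of single Reg3 genes were added after the data were seen, and no adjustment over them can pass a threshold of 0.05 in this design.

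Reg2 and Reg3b overlapped between the groups relative to Reg1. Reg2 had 18.3 to 23.5 counts per 100 Reg1 counts in cKO and 16.0 to 27.3 in control, a log2 difference of -0.12 ± 0.26 (SE; exact permutation p = 0.7). Without control replicate 2 the log2 difference was 0.045. Reg3b had 28.8, 8.96 and 11.1 counts per 100 Reg1 counts in cKO replicates 1, 2 and 3, against 16.4, 20.4 and 16.9 in control replicates 1, 2 and 3. Replicate 1 stood above all control libraries and the other cKO libraries below them, and the log2 difference was -0.33 ± 0.53 (exact permutation p = 0.5). The sum of the 4 Reg3 genes over Reg1 followed its largest part, Reg3b, with a log2 difference of -0.67 ± 0.41 (exact permutation p = 0.3). Without cKO replicate 1 that difference was -1.07. These p-values do not show that the ratios were the same in both groups.

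**Figure D3:**
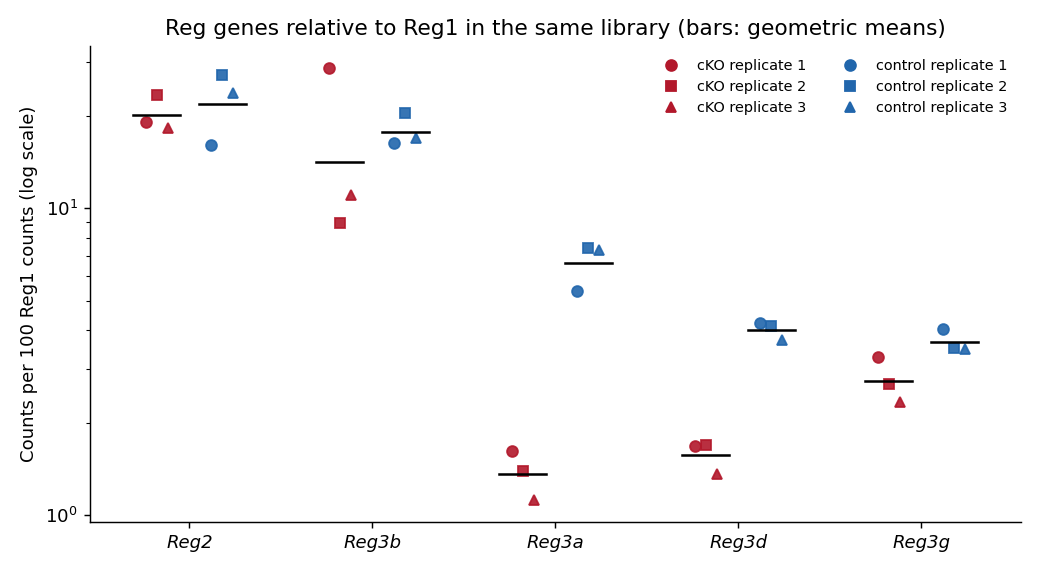
Counts of 5 Reg genes per 100 Reg1 counts of the same library (log axis), in cKO libraries (red, left of each pair) and control libraries (blue); points are libraries and bars are geometric means (n = 3 each). The groups are apart for Reg3a (1.12 to 1.61 in cKO, 5.38 to 7.40 in control), Reg3d and Reg3g, as for 0.0914% of tested genes, and overlap for Reg2 and Reg3b.

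The makeup of the family by counts changed in the same members. Reg3a was 0.962% ± 0.112 of all Reg counts in cKO and 4.31% ± 0.549 in control (SD, n = 3 each), without overlap. Reg3d was 1.11% ± 0.105 of Reg counts in cKO and 2.61% ± 0.249 in control, also without overlap. Reg3g was 1.93% ± 0.193 in cKO and 2.39% ± 0.325 in control, without overlap but by a small gap. How many of all tested genes were apart on this measure was not computed. Reg1 held 64.7%, 72.4% and 74.5% of Reg counts in cKO replicates 1, 2 and 3, against 68.5%, 61.4% and 64.4% in control replicates 1, 2 and 3, so its groups overlapped. Reg3b held 18.6% in cKO replicate 1, against 6.48% and 8.26% in cKO replicates 2 and 3, while control ranged from 10.9% to 12.5%.

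Digestive enzymes are made and secreted by the same cells as the Reg proteins, so the family was also set against them. Per 1000 enzyme counts, the summed Reg genes had 12.4, 18.0 and 13.2 counts in cKO replicates 1, 2 and 3, against 17.9, 20.2 and 25.7 in control replicates 1, 2 and 3. Only cKO replicate 2 reached the range of control, and it did so narrowly. The log2 difference was -0.55 ± 0.23 (SE; exact 2-sided permutation p = 0.2). Against the enzymes without amylase and trypsin genes, whose near-identical copies can share reads, it was -0.94 (exact permutation p = 0.1). This is a ratio to a different gene set. The amylase genes left out included Amy2a5 and Amy2a3, with log2 fold changes of -2.18 each on library totals. The trypsin genes left out went both ways, such as Prss2 (-1.78) and Prss3 (3.94).

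Reg3a again stood apart on this measure. It had 0.130, 0.182 and 0.110 counts per 1000 enzyme counts in cKO replicates 1, 2 and 3, against 0.660, 0.920 and 1.21 in control replicates 1, 2 and 3. Reg3d had 0.135, 0.220 and 0.134 counts per 1000 enzyme counts in cKO replicates 1, 2 and 3, against 0.517, 0.512 and 0.618 in control replicates 1, 2 and 3. Neither gene's groups overlapped, nor did those of Reg3g, which gives 3 of the 6 members with cKO lower, against 0.183% of tested genes. Those tested genes included digestive enzyme genes, among them Amy2b, Amy2a5, Cpb1, Prss2 and Rnase1. With enzyme counts as the library size in edgeR, 2 members were called lower, against 0.0381% of tested genes. They were Reg3a (log2 fold change -2.72 ± 0.80, SE; adjusted p = 0.000719) and Reg3d (-1.75 ± 0.78; adjusted p = 0.0248).

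The enzyme scale was added after the data were seen, and it placed 98.3% of tested genes higher in cKO. Its call for Reg3a held whichever library was left out, with a highest adjusted p of 0.0202. The call for Reg3d was lost without any single library other than cKO replicate 2 (edgeR adjusted p = 0.0534 to 0.126). Reg1 (-0.42), Reg2 (-0.54), Reg3b (-0.68) and Reg3g (-0.84) did not pass the test on it, with edgeR adjusted p from 0.270 to 0.566. Without cKO replicate 2 all 4 were called, at log2 fold changes of -0.62, -0.90, -0.52 and -1.03 in that order, where 0.175% of tested genes were called lower. The other genes called lower on that scale, named after their values were seen, were the protease inhibitor gene Serpini2 (-2.23), Tmed11 (-1.79) and the hepcidin gene Hamp2 (-1.67). The amylase genes Amy2b (-0.98) and Amy2a5 (-0.96) were not called there, but their log2 fold changes were lower than that of Reg3g.

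Among the enzymes themselves, 30 of 35 tested genes fell on the TMM scale and 0 rose, with a median log2 fold change of -3.83. On library totals 18 were called lower and 7 higher. The shares over all tested genes were 20.7% lower and 24% higher on the TMM scale. On library totals they were 0.404% lower and 96.4% higher. The enzyme genes with the most counts were the amylases Amy2a5 (-5.08 ± 1.16, SE; edgeR adjusted p = 0.00245) and Amy2a3 (-5.07 ± 1.12; 0.0019), which are near-identical copies whose split is uncertain, and the chymotrypsinogen gene Ctrb1 (-3.68 ± 0.92; 0.00452). On library totals Ctrb1 did not pass the test (-0.74, adjusted p = 0.114). All 6 tested Reg genes had lower TMM-scale values than this median.

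Genes outside the family whose pattern over the 6 libraries was most like that of Reg1 were enzymes. Likeness was the Euclidean distance between log2 CPM values, each centred on its own mean, where 0 is an identical pattern. The nearest were the ribonuclease gene Rnase1 (0.374), the trypsinogen gene Prss2 (0.505), the carboxypeptidase gene Cpb1 (0.578) and the trypsin gene Try4 (0.578). Within the family, Reg2 (0.642) and Reg3g (0.645) were about as near to Reg1, while Reg3d (1.67) and Reg3a (2.84) were further off. Nearest to Reg3b were Dmbt1 (0.937), which encodes a secreted scavenger-receptor glycoprotein, the lipase gene Pnlip (0.963), the chymotrypsin gene Ctrc (1.00), Try4 (1.01) and Sostdc1 (1.02), a secreted antagonist of growth factors. All of these genes share the 6 libraries and their scale, and fell on the TMM scale. The call for Sostdc1 was lost without cKO replicate 1 (edgeR adjusted p = 0.0691).

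**Figure D4:**
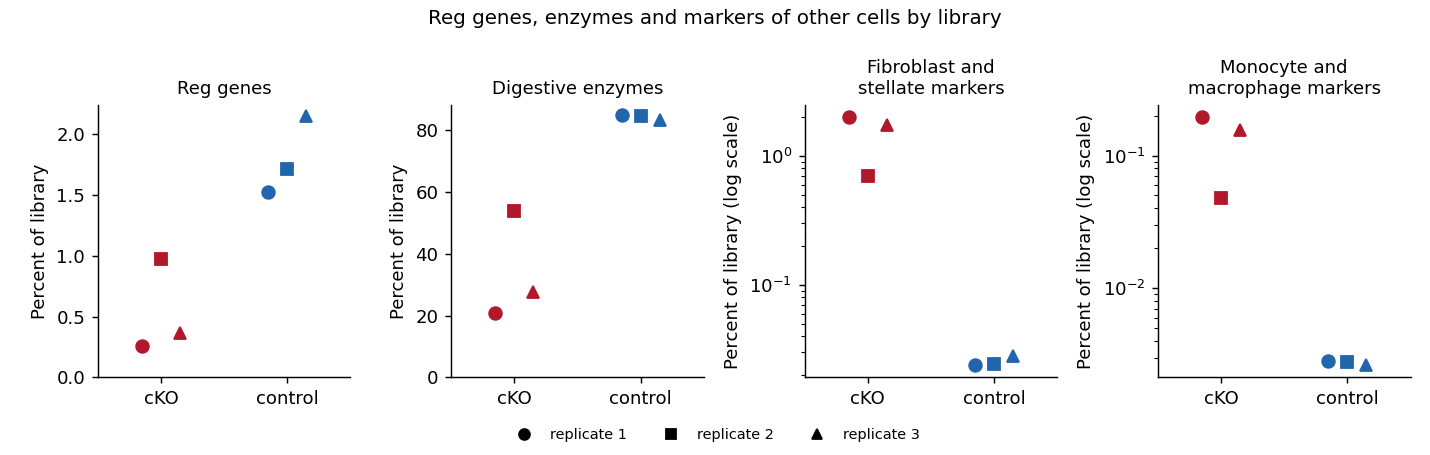
Summed counts as a percent of each library for the Reg genes, the digestive enzymes, and markers of fibroblast and stellate cells and of monocytes and macrophages (the last 2 panels on log axes), with cKO libraries in red on the left and control libraries in blue on the right. In cKO, replicate 2 has the highest Reg and enzyme shares and the lowest shares of both marker lists.

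Markers of several other cell types took a higher share of counts in cKO, where the Reg share was lower. Fibroblast and stellate markers made up 0.70% to 2.0% of counts in cKO and 0.0240% to 0.0281% in control, and 9 of 10 were called higher on the TMM scale. Monocyte and macrophage markers made up 0.0479% to 0.195% in cKO and 0.00264% to 0.00282% in control, and 9 of 9 were called higher. Mesothelial markers (4 of 5 higher; 0.0178% to 0.0419% in cKO, 0.000548% to 0.000800% in control) and lymphocyte markers (2 of 6 tested higher; 0.00325% to 0.0152% in cKO, 9.56e-05% to 0.000295% in control) were also higher in sum. Acinar markers made up 7.68% to 21.7% of counts in cKO and 23.9% to 25.2% in control, and 13 of 13 were called lower on the TMM scale, while on library totals 6 were called lower and 1 higher. Of these acinar markers, Cpa1, Cpb1, Cela1, Cela2a, Cela3b, Ctrb1 and Pnlip are also in the digestive enzyme list. The acinar marker values are thus not separate from the enzyme values given above. The shares over all tested genes were 24% called higher and 20.7% lower on the TMM scale, so 2 of 6 lymphocyte markers is near the background. On library totals 96.4% of all tested genes were called higher and 0.404% lower. The lowest fibroblast and macrophage shares in cKO were in replicate 2, the cKO library with the highest Reg share. The part of these cells in the Reg values was not tested, and in bulk RNA fewer acinar cells and less Reg RNA per acinar cell cannot be told apart.

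Other marker lists were mixed on the TMM scale, where 24% of all tested genes were called higher and 20.7% lower. Of 8 tested duct markers 3 were called higher and 3 lower (0.0248% to 0.0460% of counts in cKO, 0.00617% to 0.00820% in control), and of 14 islet markers 1 was called higher and 1 lower (0.164% to 0.240% in cKO, 0.0187% to 0.0325% in control). Of 7 endothelial markers 1 was called higher and 3 lower (0.00700% to 0.00963% in cKO, 0.00155% to 0.00172% in control). On library totals 6 of 8 duct, 14 of 14 islet and 7 of 7 endothelial markers were called higher and 0 lower, where 96.4% of all tested genes were called higher. Intestinal epithelium, another known site of Reg3 expression, was near absent by its markers. Its 14 markers summed to 0.00136% to 0.00548% of counts in cKO and 0.000109% to 0.000151% in control, and 7 of them (Fabp2, Alpi, Sis, Lct, Defa24, Cdx1 and Cdx2) had 0 counts in all 6 libraries.

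Genes of cytokines known to act upstream of Reg expression in other settings were mostly higher. Of 9 tested cytokine ligand genes 6 were called higher in cKO and 0 lower, with a median log2 fold change of 2.02 on the TMM scale, against 0.10 over all genes, of which 24% were called higher. Il6, the interleukin-6 gene, was counted 1071, 612 and 1740 times in cKO replicates 1, 2 and 3, against 17, 29 and 32 times in control replicates 1, 2 and 3. It rose by 2.75 ± 0.27 (SE; edgeR adjusted p = 2.19e-06). Il1b rose by 2.18 ± 0.24 (adjusted p = 1e-05) and Tnf by 1.99 ± 0.24 (adjusted p = 1.33e-05), both genes of inflammatory cytokines. Il11, one of the 6, had 11, 12 and 14 counts in cKO and 0 in each control library. Its cKO CPM lay within or under the levels that 0 counts allow in control, so it is given no fold, and the list's median with Il11 set to no change was 1.99. The macrophage and fibroblast marker shares given above were higher in the same libraries.

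JAK-STAT3 signalling genes were mostly higher. Of 17 tested genes 10 were called higher, against 24% of all tested genes, and 1 lower, with a median log2 fold change of 0.79. Pim1, a kinase gene known as a STAT target, rose by 2.22 ± 0.20 (SE; edgeR adjusted p = 1.16e-06), and Socs3, a feedback inhibitor of the pathway, rose by 1.69 ± 0.20 (adjusted p = 9.48e-06). Pim3 fell by 1.75 ± 0.23 on the TMM scale (adjusted p = 3.8e-05), but its log2 fold change on library totals was 1.46. Stat3 itself, named after its value was seen, rose by 0.79 ± 0.18 (adjusted p = 0.00214).

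Of 15 tested receptor genes 7 were called higher and 3 lower, with a median log2 fold change of 0.57 on the TMM scale. Of all tested genes 24% were called higher and 20.7% lower there, so the share of these receptor genes called lower was near the background. Extl3, a glycosyltransferase gene whose product has been described as a Reg receptor, fell by 2.29 ± 0.19 (SE; edgeR adjusted p = 7.56e-07) on the TMM scale, while its log2 fold change on library totals was 0.93. It had 441, 400 and 628 counts in cKO replicates 1, 2 and 3, against 384, 398 and 377 in control replicates 1, 2 and 3. The raw counts were close, and the direction rests on the scale. Lifr, a receptor gene of the interleukin-6 family, fell by 2.39 ± 0.16 on the TMM scale (adjusted p = 4.7e-07), with a log2 fold change of 0.89 on library totals. Il1r1, the interleukin-1 receptor gene, rose by 3.29 ± 0.38 (adjusted p = 8.63e-06). On library totals all tested genes of the ligand (9), signalling (17) and receptor (15) lists were called higher, as were 96.4% of all tested genes.

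By the genes called, the lists of stress and acute phase genes and of other lectins went both ways, unlike the Reg genes. Of 17 tested stress and acute phase genes 8 were called higher and 6 lower (median log2 fold change 0.34). On the TMM scale 24% of all tested genes were called higher and 20.7% lower, which is also the background for the lectin genes below. Gdf15, a stress cytokine gene, rose by 2.75 ± 0.23 (SE; edgeR adjusted p = 7.91e-07) and Anxa2, an annexin gene, by 1.80 ± 0.17 (adjusted p = 1.6e-06). Dmbt1 fell by 5.43 ± 0.67 (adjusted p = 2.59e-05), and its log2 fold change on library totals was -2.52. Of 10 tested lectin genes outside the family 6 were called higher and 4 lower (median 1.21). Clec3b, the gene of the C-type lectin tetranectin, rose by 2.09 ± 0.17 (adjusted p = 6.83e-07) and the galectin gene Lgals1 by 1.46 ± 0.17 (adjusted p = 9.92e-06). Lman1, which encodes a cargo lectin of the early secretory pathway, fell by 1.58 ± 0.20 on the TMM scale (adjusted p = 1.71e-05), with a log2 fold change of 1.62 on library totals. Zg16, named after its value was seen, had the most counts of the tested lectin genes. It fell by 3.80 ± 0.66 (adjusted p = 0.000292), with a log2 fold change of -0.83 on library totals. Summed over the lectin list, cKO was lower, at 0.587% to 0.832% of counts against 0.844% to 0.930% in control. The stress and acute phase list summed to 0.878% to 1.01% of counts in cKO and 0.407% to 0.465% in control. In TMM-scale CPM both sums were lower in cKO. Without cKO replicate 3 or control replicate 3, 2 of these lectin genes were called lower.

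**Figure D5:**
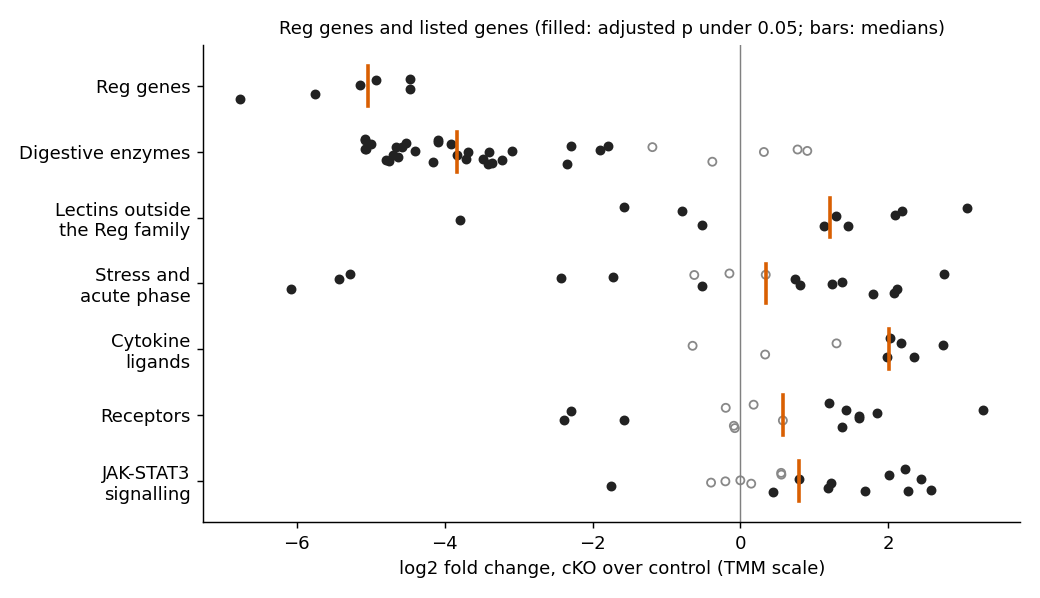
Log2 fold change of cKO over control on the TMM scale for each tested gene of the Reg family and of 6 gene lists; filled points passed an adjusted p of 0.05 in edgeR, open points did not, and orange bars are medians of the points drawn. The 6 Reg genes lie at -6.76 to -4.46, at the low end of the enzymes, while the cytokine ligand genes lie mostly above 0; Il11 is left out because it had 0 counts in control, and on library totals all points of the 3 lowest rows are above 0.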

How the data were processed

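RNA of 3 cKO and 3 control libraries was prepared with a Lexogen QuantSeq kit from 500 ng of total RNA, per the labels' protocols; the kit yields 1 tag per transcript, close to its 3' end. For each library the authors deposited a table of raw, unnormalized read counts by gene symbol. The submitters' processing notes list Bowtie2 and edgeR, and mm10 and GRCm38 as builds, without roles. Not given in the sources used here were the counting tool, annotation, strand setting and treatment of multiply matching reads. Molecular identifiers are not mentioned, so counts may include PCR copies; intervals and floors cover counting error only. Each table had 23282 rows; symbols were cut at 12 characters, and no Reg symbol stood on a repeated row.

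Library totals were 15.2 M to 25.2 M counts (M, mega). The test was edgeR's quasi-likelihood F test (version 4.0.16, R 4.3.3; robust glmQLFit, TMM factors, filterByExpr keeping a minimum count of 10 and total of 15). P-values were adjusted by Benjamini-Hochberg over the 13132 genes tested, and 0.05 was the threshold. Each SE is the size of the log2 fold change over the root of F. Log2 CPM used a prior count of 2. Within-library ratios and shares were compared with exact 2-sided permutation tests. The fit was tested on simulated data. That simulation was not built with a shift in library makeup like the one between these groups, so it does not test the choice of scale. Coordinates are from GENCODE M21 (GRCm38) and promoters from RefSeq (GRCm38.p6).

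Named genes are all 7 members, Esrrg, the 3 called genes with the smallest p of each list (for enzymes the 3 with the most counts), and for Reg1 and Reg3b the 5 genes of nearest pattern with a mean log2 CPM of at least 3; 1 gene that this rule names is not reported here. The members, lists and rules were chosen with earlier results of these data known. Alternatives were DESeq2 1.42.0, DESeq2 size factors in edgeR, library totals, no filter on low counts, the replicate number as a block, other denominators, leaving out each library, and the enzyme scale and single Reg3 ratios added after the data were seen.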

Additional observations from a re-analysis of the deposited data

How the results depend on the processing

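All 6 tested Reg genes were called lower under DESeq2, DESeq2 size factors in edgeR, library totals, no filter, the replicate block and with each library left out; with digestive enzyme counts as the scale 2 were called. Their median log2 fold change (-5.03) was -2.09 on library totals, -0.76 on the enzyme scale, and -6.26 to -4.67 with 1 library left out, the lowest without cKO replicate 2; other settings gave -5.47 to -4.99. Of 72 member fold changes under alternatives 68 kept their direction and call, 4 lost the call, all on the enzyme scale, and 0 reversed. The log2 difference of Reg2 over Reg1 reversed to 0.045 without control replicate 2 (range -0.34 to 0.045); the cause was not tested. Same-numbered libraries did not deviate together (correlations -0.03 to 0.01). With 3 libraries per group this check cannot exclude a shared batch, and no link beyond the number is known here. With the number as a block the median was -5.47 and 5389 genes were called, against 5869 without it. The paired differences (replicate block, exact sign-flip test) were those of the unpaired tests, with p = 0.25 for the Reg share (-1.26) and for Reg over enzymes (-0.55), 0.5 for Reg3 over Reg1 (-0.67) and 0.75 for Reg2 over Reg1 (-0.12); 0.25 is the smallest 3 pairs allow. Among the Reg genes depth limits Reg4 only: 3 counts are 0.119 to 0.198 CPM of library totals.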
